A study of Mus musculus with 6 samples.

Results

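The 8 genes described here are the HoxB cluster genes of paralog numbers 2 to 9 (Hoxb2, Hoxb3, Hoxb4, Hoxb5, Hoxb6, Hoxb7, Hoxb8 and Hoxb9). They were chosen by symbol, from a list that names no measured value but was made with earlier results of these data known. The count files hold 49315 genes, and all 8 were among the 16068 genes with enough reads to test. The samples are poly(A) RNA libraries of 6 mouse embryo fibroblast lines. The 3 SG lines (SG1, SG2, SG3; p53-/-;MDMXSG/SG) are homozygous for a knock-in of MDMX, an inhibitor of p53, with the substitutions W201S and W202G, and the 3 WT lines (WT3, WT9, WT11; p53-/-;MDMXWT/WT) carry wild-type MDMX. All 6 lines lack p53, are of the C57BL/6 strain, were grown without treatment in DMEM with fetal bovine serum and were collected at passage 4.

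Each line came from a separate embryo, so a replicate is an embryo and the spread between lines includes any difference in the tissue each culture came from. The knock-in and the p53-null alleles are carried by every cell, so the lines do not separate an effect in cultured fibroblasts from an earlier one in the embryo. The sources used here do not give litter, embryo age or sequencing run. The study set SG lines against WT lines to find transcripts that depend on the intact MDMX residues in cells without p53.

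Hox genes encode homeodomain transcription factors and lie in 4 clusters in mammals. Within a cluster, genes of low paralog number, at the 3′ end, are switched on earlier and nearer the head than genes of high paralog number, at the 5′ end. Fibroblasts in culture keep a Hox pattern that reflects the body position they came from. Retinoic acid opens the 3′ end of the HoxB cluster in the hindbrain and trunk, Polycomb proteins hold the cluster silent elsewhere, Trithorax proteins keep it active, and Hox proteins bind DNA together with partners of the Pbx and Meis families.

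All 8 genes lie on the plus strand of chromosome 11 (GRCm38), and their homeoboxes, the part that encodes the DNA-binding homeodomain, were compared because they bear on how far reads of these genes could be told apart. Over the whole homeobox of 180 bases, identity among the 8 genes runs between 58.9% (Hoxb4 and Hoxb9) and 88.9% (Hoxb6 and Hoxb7). Against other clusters it reaches 93.9% for Hoxb3 with Hoxa3 and 92.8% for Hoxb3 with Hoxd3. The longest exact run that a HoxB transcript shares with any other Hox transcript is 28 bases for Hoxb2 and Hoxb5 and 52 bases for Hoxb4, which shares it with Hoxa6. How multimapping reads were treated was not given in the sources used here.

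The cluster also holds the gene of the microRNA miR-196a, which lies between Hoxb9 and Hoxb13, and Hoxb8 mRNA is its best known target, cleaved at a nearly perfect site. The mature sequence (RefSeq, GRCm38.p6, chr11:96265187-96265208, plus strand) and its Hoxb8 site (exon 2, after the coding part, chr11:96284888-96284909) are shown because both belong to this cluster. Capitals mark the seed, bases 2 to 8 of the microRNA, and the bases opposite it.
miR-196a-5p: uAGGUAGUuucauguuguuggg
Hoxb8 site: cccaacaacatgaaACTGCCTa
Hoxb7 seed match: ctgtaaaaaaatatACTACCTa
Hoxb6 seed match: tggaaggagcacatACTACCTa

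Of the 22 bases of miR-196a-5p, 21 pair with the Hoxb8 site and 1, in the seed, forms a G-U wobble. The exact seed matches after the coding parts of Hoxb7 (chr11:96289784-96289805) and Hoxb6 (chr11:96301373-96301394) pair at 14 and 12 of the 22 bases, with 1 and 2 wobbles. A match is a description of the letters and does not show that a site is used in these cells.

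RefSeq promoter entries were matched for 2 of the 8 genes, and the 250 bases before the start site of each are shown as the controlling DNA of the gene with the smallest p (Hoxb8, chr11:96281655-96281904) and of the gene with the largest fold (Hoxb4, chr11:96318017-96318266). Capitals mark matches to 5 motifs searched on both strands, named here with the share of 32851 RefSeq promoter windows of the same length that hold each. They are CCAAT (33.8%), the E-box CACGTG (6.02%), TATAAA (12.4%), the Pbx-Hox pair TGATNNAT (7.68%) and the retinoic acid element of 2 AGGTCA half-sites in the same direction with 5 bases between them (0.00913%).
Hoxb8: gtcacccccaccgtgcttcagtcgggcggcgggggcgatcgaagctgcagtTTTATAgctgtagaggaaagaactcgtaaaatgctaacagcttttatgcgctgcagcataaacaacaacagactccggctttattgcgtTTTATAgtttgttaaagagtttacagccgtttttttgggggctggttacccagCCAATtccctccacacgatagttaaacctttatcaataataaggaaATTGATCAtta
Hoxb4: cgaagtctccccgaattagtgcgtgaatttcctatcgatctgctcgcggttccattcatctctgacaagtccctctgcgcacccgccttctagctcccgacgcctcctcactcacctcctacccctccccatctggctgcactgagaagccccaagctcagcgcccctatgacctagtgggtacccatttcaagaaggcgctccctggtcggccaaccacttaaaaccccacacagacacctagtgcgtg

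The Hoxb8 window holds CCAAT on the plus strand from base -57, TATAAA on the minus strand from bases -199 and -110, and TGATNNAT on the minus strand from base -11, counted from the start site as 0. The Hoxb4 window holds none of the 5 motifs, which says only that these letters are not in it. GC content was 44.4% in the Hoxb8 window and 58.0% in the Hoxb4 window.

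Libraries held 49317925 to 65457242 counts, and 23053 to 23781 genes had a count. Levels below are CPM, counts scaled to a common library size adjusted by TMM, and a log2 fold change is the SG level over the WT level, given with its standard error (SE). An adjusted p is from edgeR's quasi-likelihood test, 2-sided, with Benjamini-Hochberg adjustment across the 16068 genes, with a threshold of 0.05. The fibroblast label was checked with 10 markers, all tested. Their summed level was 23170 to 25790 CPM in SG lines and 22126 to 22864 CPM in WT lines, without overlap. Log2 fold changes lay above 0 for 3 of the 10, with a median of -0.15. Without overlap, 1 marker was higher and 3 were lower in SG, where 10.0% and 11.2% of all tested genes were. Of the 10 markers, Fn1 passed as higher and Thy1 as lower in SG. Both calls were lost without SG2 (adjusted p = 0.121 and 0.0629). That of Fn1 was also lost without SG1, WT3 or WT11 (0.0569, 0.129 and 0.0993). The summed levels of epithelial, endothelial and skeletal muscle markers overlapped between genotypes. The epithelial markers Krt14 and Epcam and the muscle markers Des and Cdh15 were each higher in every SG line than in any WT line. None of the 4 passed the threshold, and 10.0% of all tested genes were higher in SG without overlap. Epcam had only 17, 25 and 18 counts in SG1, SG2 and SG3, against 14, 19 and 18 in WT3, WT9 and WT11. Log2 fold changes lay above 0 for 5 of 6 tested epithelial markers and 3 of 4 tested muscle markers. The exceptions were Krt19 (-0.42) and Acta1 (-0.33). Myod1 and Myog, which define muscle, were at or near 0.

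All 8 HoxB genes had more RNA in SG than in WT lines on average, and 7 of the 8 were higher in every SG line than in any WT line, but none passed the threshold. Hoxb2 to Hoxb8 averaged between 1.28-fold (Hoxb8) and 1.55-fold (Hoxb4) the WT level, while Hoxb9, the most abundant, averaged 1.07-fold. The median log2 fold change of the 8 was 0.47, against 0.0017 for all genes tested, of which 50.7% lay above 0. At the threshold 0 HoxB genes were higher and 0 lower, where 0.809% of all tested genes were called higher and 1.10% lower. At an unadjusted p under 0.05, 7 of the 8 were higher, where 7.28% of all genes were. Genes whose genotypes did not overlap, higher in SG, made up 10.0% of all tested genes and 7 of the 8 HoxB genes. The 8 genes were chosen with earlier results known, and several vary together across lines, so these shares are not a test. The 306 genes called in either direction (1.90%) shrank to 3 without SG2, 24 without WT3 and 29 without WT11 and grew to 579 without SG1 and 460 without WT9. In bulk RNA, fewer cells of a type and less RNA per cell cannot be told apart.

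Which HoxB genes are called depends on the test. DESeq2 called 5 of the 8 higher in SG (2.65% of its genes were), namely Hoxb3 (adjusted p = 0.0266), Hoxb4 (0.00267), Hoxb6 (0.00517), Hoxb7 (0.0163) and Hoxb8 (0.00458). The quasi-likelihood test without a filter on low counts called the same 5 (1.46% of its genes), with adjusted p between 0.0104 and 0.0435. In neither were Hoxb2, Hoxb5 or Hoxb9 called.

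**Figure D1:**
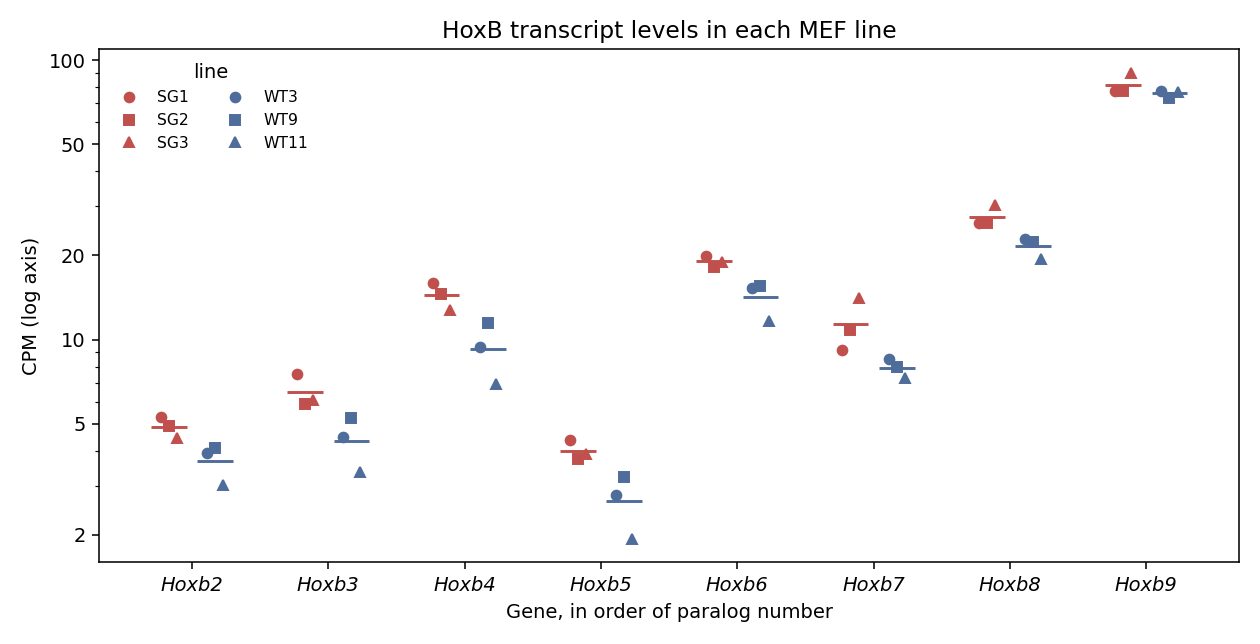
Level of each HoxB gene in each line, in CPM on a log axis, with SG lines in red left of WT lines in blue; each point is a line and each bar the mean of 3. The SG points lie above all WT points for Hoxb2 to Hoxb8 and overlap them for Hoxb9.

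At the 3′ end, Hoxb2 and Hoxb3 act in the hindbrain, where they help set the identity of its segments and cranial nerves. Hoxb2 (ENSMUSG00000075588, 96350525 to 96354012 on chromosome 11) was at 5.27, 4.90 and 4.43 CPM in SG1, SG2 and SG3, against 3.94, 4.10 and 3.01 CPM in WT3, WT9 and WT11. Every SG line lay above every WT line, with SG3 only 8.22% above WT9. The log2 fold change was 0.40 (SE 0.14, adjusted p = 0.226).

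Hoxb3 (ENSMUSG00000048763, 96323326 to 96347930) was at 7.54, 5.88 and 6.09 CPM in SG1, SG2 and SG3, against 4.48, 5.23 and 3.35 CPM in WT3, WT9 and WT11. SG1 stood above the other SG lines, WT11 below the other WT lines, and the genotypes did not overlap. The mean was 6.50 ± 0.903 CPM in SG, against 4.35 ± 0.947 CPM in WT (SD, n = 3 each), or 0.58 as log2 fold change (SE 0.18, adjusted p = 0.162). Both genes overlap the antisense RNA Hoxb3os, which covers 52.9% of the exon bases of Hoxb3 and 27.3% of those of Hoxb2. Hoxb3os itself was at 1.09, 0.642 and 0.565 CPM in SG1, SG2 and SG3, against 0.640, 0.734 and 0.450 CPM in WT3, WT9 and WT11. Its genotypes overlapped, and since the strand setting of the counting was not given in the sources used here, reads of the partners cannot be told apart.

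Hoxb4 and Hoxb5 pattern the neck and upper trunk. Hoxb4 is also known for expanding blood stem cells when forced on, and Hoxb5 for placing the shoulder girdle. Hoxb4 (ENSMUSG00000038692, 96318267 to 96321638) was at 15.9, 14.6 and 12.8 CPM in SG1, SG2 and SG3, against 9.44, 11.4 and 6.95 CPM in WT3, WT9 and WT11. Every SG line exceeded every WT line, and SG3 was 11.7% above WT9, the nearest pair. The mean was 14.4 ± 1.56 CPM in SG, against 9.28 ± 2.26 CPM in WT (SD, n = 3 each). Its log2 fold change, 0.64 (SE 0.17, adjusted p = 0.122), was the largest of the 8. Without WT9 it was 0.82 and passed (adjusted p = 0.0422).

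Hoxb5 (ENSMUSG00000038700, 96303336 to 96306121) was at 4.37, 3.73 and 3.90 CPM in SG1, SG2 and SG3, against 2.78, 3.23 and 1.93 CPM in WT3, WT9 and WT11. The order of the lines was close to that of Hoxb3, with SG1 highest, WT11 lowest and no overlap. The log2 fold change was 0.59 (SE 0.19, adjusted p = 0.178). The antisense RNA Hoxb5os covers 3.59% of its exon bases and was at 1.39 to 2.23 CPM in SG lines and 0.899 to 1.59 CPM in WT lines.

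Hoxb6 is a gene of the lateral plate and limb bud, and Hoxb7, whose promoter is a common tool for the ureteric bud of the kidney, acts in the thoracic region. Hoxb6 (ENSMUSG00000000690, 96292476 to 96301569) was at 19.97, 18.2 and 18.9 CPM in SG1, SG2 and SG3, against 15.3, 15.5 and 11.6 CPM in WT3, WT9 and WT11. SG lines lay close together, WT11 stood below the other WT lines, and the gap between the genotypes (17.8%, SG2 over WT9) was the widest of the 7 genes without overlap. The log2 fold change was 0.43 (SE 0.11, adjusted p = 0.104).

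Hoxb7 (ENSMUSG00000038721, 96286623 to 96290162) was at 9.17, 10.9 and 14.1 CPM in SG1, SG2 and SG3, against 8.54, 7.96 and 7.29 CPM in WT3, WT9 and WT11. SG3 stood far above SG1, and SG1 was only 7.33% above WT3, the narrowest gap of the 7. The counting intervals (95% Poisson, counting error only) of SG1, 8.39 to 10.0036 CPM, and SG3, 13.1 to 15.1 CPM, did not meet. The log2 fold change was 0.52 (SE 0.15, adjusted p = 0.148), and without SG1 it was 0.65 and passed (adjusted p = 0.0429).

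Hoxb8 and Hoxb9 pattern the thoracic skeleton. Hoxb8 is also known for blocking myeloid differentiation when forced on. Hoxb8 (ENSMUSG00000056648, 96281905 to 96285315) was at 26.1 CPM in both SG1 and SG2 and 30.3 CPM in SG3, against 22.9, 22.3 and 19.5 CPM in WT3, WT9 and WT11. SG3 was high, WT11 low, and the genotypes lay 14.2% apart at their nearest. The mean was 27.5 ± 2.43 CPM in SG, against 21.5 ± 1.80 CPM in WT (SD, n = 3 each), or 0.35 as log2 fold change (SE 0.08). Its adjusted p of 0.0812 was the smallest of the 8.

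Hoxb9 (ENSMUSG00000020875, 96271457 to 96276595) was at 77.3, 77.5 and 90.05 CPM in SG1, SG2 and SG3, against 77.8, 73.1 and 77.1 CPM in WT3, WT9 and WT11. SG1 and SG2 lay within the WT lines, just below WT3, and SG3 stood apart from all 5 others. The counting interval of SG3 was 87.6 to 92.5 CPM and that of WT3, the highest WT line, 75.3 to 80.2 CPM. The log2 fold change was 0.10 (SE 0.06, adjusted p = 0.511), smaller than the spread between SG lines.

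Summed over the 8 genes, the HoxB level was 165.6, 161.9 and 180.6 CPM in SG1, SG2 and SG3, against 145.1, 142.9 and 130.8 CPM in WT3, WT9 and WT11. Hoxb9 took 46.7% to 49.9% of that sum in SG lines and 51.2% to 59.0% in WT lines. Without Hoxb9 the sum was 88.3, 84.3 and 90.5 CPM in SG1, SG2 and SG3, against 67.4, 69.7 and 53.7 CPM in WT3, WT9 and WT11. The sum of 7 genes was nearly level across SG lines and lowest in WT11.

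Per length, which allows genes to be set against each other, the order over the 6 lines was Hoxb9, Hoxb8, Hoxb6, Hoxb7, Hoxb4, Hoxb3, Hoxb2 and Hoxb5. Levels in CPM per kb of exon were 31.7 ± 2.83 in SG and 29.5 ± 0.970 in WT for Hoxb9, against 10.4 ± 0.921 in SG and 8.18 ± 0.685 in WT for Hoxb8 (SD, n = 3 each). Hoxb9 exceeded Hoxb8 in all 6 lines, with no overlap. Hoxb6 was at 9.70 ± 0.444 in SG and 7.20 ± 1.10 in WT, Hoxb7 at 7.36 ± 1.61 in SG and 5.14 ± 0.404 in WT, and Hoxb4 at 5.62 ± 0.608 in SG and 3.62 ± 0.880 in WT. Neighbours among Hoxb8, Hoxb6, Hoxb7 and Hoxb4 kept that order in 5 or 6 of the 6 lines while their ranges overlapped. Hoxb4 exceeded Hoxb3 in all 6 lines without overlap. Hoxb3, Hoxb2 and Hoxb5 did not differ beyond their spread, at 1.53, 1.40 and 1.44 CPM per kb in SG and 1.02, 1.06 and 0.950 in WT. The exon lengths of Hoxb2 and Hoxb5 include transcripts that keep an intron, which lowers their values per length.

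**Figure D2:**
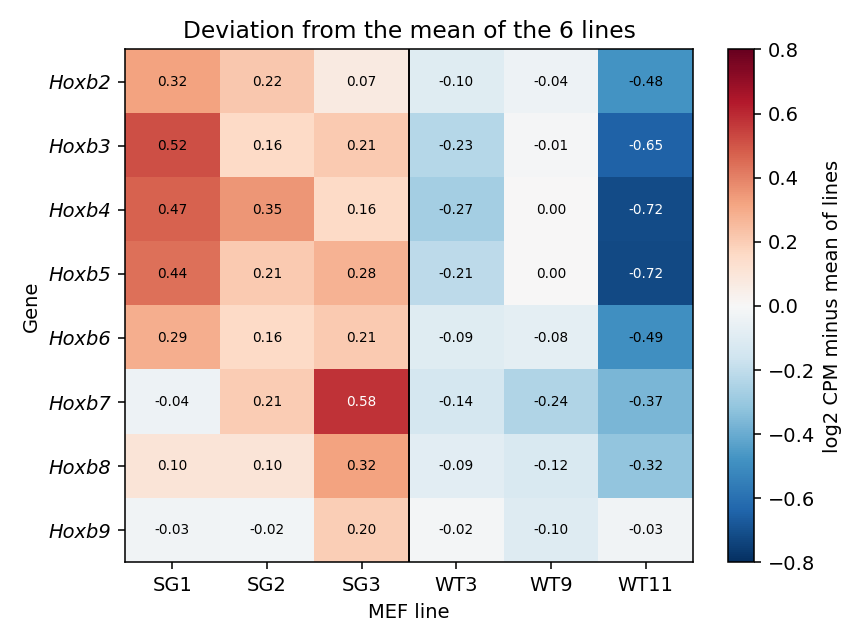
Deviation of each HoxB gene in each line from its mean over the 6 lines, in log2 CPM, SG lines left of the vertical line and WT lines right of it. WT11 is lowest for Hoxb2 to Hoxb8, SG1 is highest for Hoxb2 to Hoxb6 and SG3 for Hoxb7 to Hoxb9.

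Lines of the same genotype differed among themselves, and the highest line changed along the cluster. SG1 was the highest line for the 5 genes Hoxb2 to Hoxb6, and SG3 for the 3 genes Hoxb7 to Hoxb9. For Hoxb2, Hoxb4, Hoxb5 and Hoxb6 the counting interval of SG1 overlapped that of the next SG line. For Hoxb3, Hoxb7, Hoxb8 and Hoxb9 the interval of the highest line stood apart from those of the other SG lines. WT11 was the lowest line for 7 of the 8, Hoxb9 being the exception. For Hoxb4 the deviation from the mean of all lines, in log2 CPM, was 0.47, 0.35 and 0.16 in SG1, SG2 and SG3, against -0.27, 0.00 and -0.72 in WT3, WT9 and WT11. For Hoxb7 it was -0.04, 0.21 and 0.58 in SG1, SG2 and SG3, against -0.14, -0.24 and -0.37 in WT3, WT9 and WT11, so the SG lines stood in the opposite order.

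The mean log2 CPM of Hoxb2 to Hoxb5 minus that of Hoxb6 to Hoxb9 was -1.76, -1.99 and -2.26 in SG1, SG2 and SG3, against -2.23, -1.99 and -2.46 in WT3, WT9 and WT11. The genotypes overlapped on this balance of 3′ against 5′ genes, and the means differed by 0.22, less than the spread between lines of either genotype. That difference was 0.0998 without SG1, 0.107 without WT11, 0.340 without WT9 and 0.350 without SG3. The mean of Hoxb2 to Hoxb5 alone was 2.86, 2.66 and 2.61 in SG1, SG2 and SG3, against 2.23, 2.42 and 1.79 in WT3, WT9 and WT11. That of Hoxb6 to Hoxb9 was 4.63, 4.66 and 4.87 in SG1, SG2 and SG3, against 4.46, 4.41 and 4.24 in WT3, WT9 and WT11. Each mean lay higher in every SG line than in any WT line.

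SG1 and WT9 are the lines that express Xist, the noncoding RNA of the inactive X chromosome, at 399.2 CPM (SG1) and 342.9 CPM (WT9), against 0.565 to 0.70 CPM in the other 4 lines. They are also the highest line of their genotype for Hoxb2 to Hoxb6. The counting intervals of WT9 and WT3 overlapped for all of these genes but Hoxb4. Without SG1 and WT9 the median log2 fold change of the 8 genes was 0.54, and 0 of the 8 passed. The log2 fold change of Hoxb4 was then 0.74 (adjusted p = 0.0521) and that of Hoxb7 0.66 (adjusted p = 0.0723). With Xist as a covariate 0 passed, with Hoxb4 nearest at an adjusted p of 0.0509.

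Levels of other cell types' markers moved with some of these lines. The summed level of 10 macrophage and blood markers was 27.8 to 64.3 CPM in SG lines, highest in SG3. In WT lines it was 12.1 to 34.7 CPM, lowest in WT11. Of the 10 markers, 9 were tested and 0 passed the threshold. All 9 log2 fold changes lay above 0, with a median of 0.57. Of the defining genes of this list, Ptprc was at 1.35 to 2.60 CPM in SG lines and 1.28 to 1.80 CPM in WT lines. Hba-a1, also a defining gene, had at most 1 count in any line. The summed level of 8 neural and glial markers was 470.6 to 493.5 CPM in SG lines and 336.2 to 421.8 CPM in WT lines, without overlap, and most of it was Nes. Of the 8 markers, 3 log2 fold changes lay above 0, with a median of -0.11. Map2, Tubb3 and Sox2 were lower, and Nes and Elavl4 higher, in every SG line than in any WT line. Among all tested genes, 11.2% were lower and 10.0% higher in SG without overlap. None of the 8 passed the threshold. Of the defining genes of this list, Sox10 was at 0.137 to 0.235 CPM in SG lines and 0.0611 to 0.240 CPM in WT lines. The part of these markers in the HoxB differences was not tested.

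The differences can be set along the cluster, whose 8 genes lie 1307 to 12145 bases apart, the widest gap being that between Hoxb5 and Hoxb4. From the 5′ end, the log2 fold change was 0.10 at Hoxb9, 0.35 at Hoxb8, 0.52 at Hoxb7, 0.43 at Hoxb6, 0.59 at Hoxb5, 0.64 at Hoxb4, 0.58 at Hoxb3 and 0.40 at Hoxb2. The SE values of neighbours from Hoxb8 to Hoxb2, 0.08 to 0.19, are of the size of the steps between them.

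**Figure D3:**
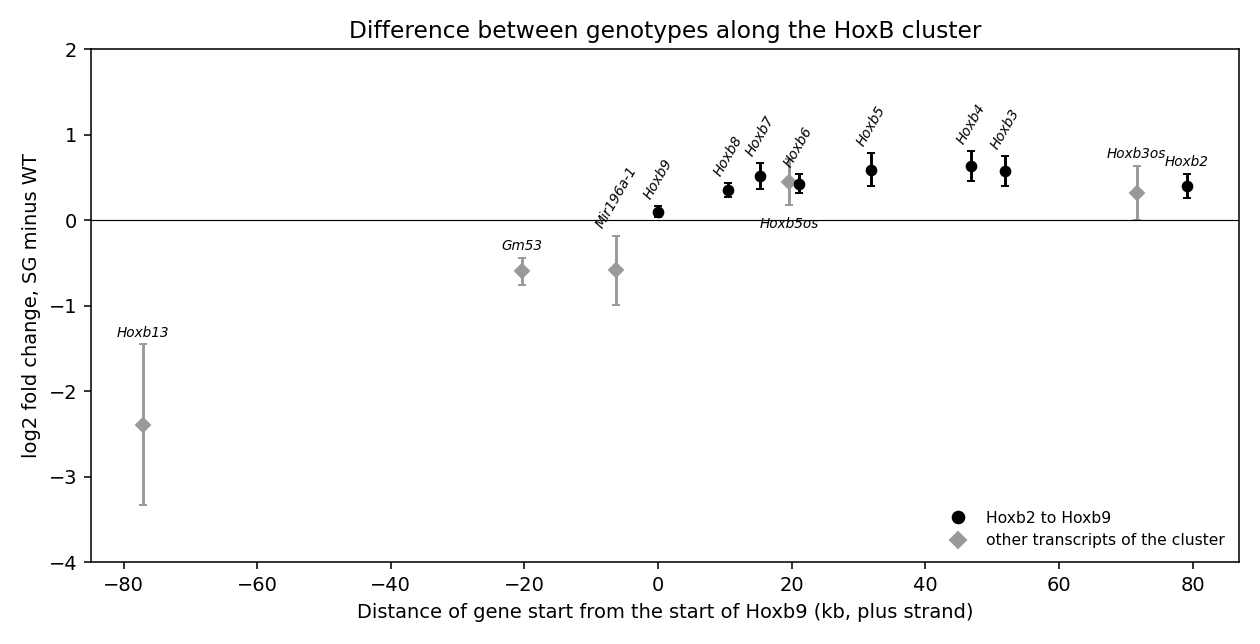
Log2 fold change (SG minus WT, bars ± SE) of the HoxB genes (black) and of 5 other tested transcripts of the region (grey) against the distance of each gene's lowest coordinate from that of Hoxb9, in kb. Values lie between 0.10 and 0.64 for Hoxb2 to Hoxb9, and Gm53, Mir196a-1 and Hoxb13, 5′ of Hoxb9, lie below 0 without passing the threshold.

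Outside the 8 genes, the ends of the cluster were nearly silent, except for Hoxb13 in WT11. Hoxb1, which sets the identity of a hindbrain segment, had 1 count in SG1 and 0 in the other 5 lines and was not tested. Hoxb13, a gene of the tail and prostate 77.1 kb on the 5′ side of Hoxb9, was at 0.344, 0.157 and 0.154 CPM in SG1, SG2 and SG3, against 0.280, 0.352 and 2.76 CPM in WT3, WT9 and WT11. Its log2 fold change, -2.39 (SE 0.94, adjusted p = 0.275), rests on WT11, and the other WT lines lay near the SG lines.

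Gm53, a long noncoding RNA between Hoxb13 and Hoxb9 (96251105 to 96264868), was at 12.9, 10.3 and 8.47 CPM in SG1, SG2 and SG3, against 17.03, 13.7 and 17.1 CPM in WT3, WT9 and WT11. It was lower in every SG line than in any WT line, in the direction opposite to its Hox neighbours, and its log2 fold change was -0.59 (SE 0.16, adjusted p = 0.110). Counts on the Mir196a-1 hairpin gene were 71, 27 and 30 in SG1, SG2 and SG3, against 63, 74 and 55 in WT3, WT9 and WT11. They are reads of poly(A) RNA over that interval and not a measure of the mature miRNA, and its log2 fold change was -0.58 (SE 0.41, adjusted p = 0.562). Mir10a, between Hoxb5 and Hoxb4, had 3 to 9 counts a line and was not tested.

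Of 20 RNAs and flanking genes of the region, 17 were in the files, 13 of these were tested and 0 passed in either direction. Their log2 fold changes lay above 0 for 6 of the 13, with a median of -0.0047. Igf2bp1, an RNA-binding protein gene on the 5′ side, had a log2 fold change of 0.10 (adjusted p = 0.523), and Skap1, an adaptor protein gene on the 3′ side, one of -0.43 (adjusted p = 0.452).

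Genes that act on or with HoxB were described by lists. The TALE-class cofactors are homeodomain partners of Hox proteins. Of the 9 on the list, all tested, 7 log2 fold changes lay above 0, with a median of 0.10. Pknox1 (-0.13) and Pbx4 (-0.27) lay below 0. Meis2 was at 58.1 ± 7.80 CPM in SG, against 39.3 ± 2.25 CPM in WT (SD, n = 3 each), and its log2 fold change was 0.56 (SE 0.09, adjusted p = 0.0322). Pbx3 was at 28.7 ± 0.958 CPM in SG, against 24.9 ± 1.17 CPM in WT (SD, n = 3 each), without passing (adjusted p = 0.0971). The Meis2 call was lost without SG2, WT3 or WT11 (adjusted p = 0.135, 0.133 and 0.122) and with a robust prior (0.0533).

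Of 18 genes of the retinoic acid pathway, 16 were tested, 1 fell in SG and 0 rose, and 3 of the 16 log2 fold changes lay above 0, with a median of -0.17. Crabp1, which encodes a cellular binding protein for retinoic acid, fell to 439.7, 351.6 and 292.9 CPM in SG1, SG2 and SG3, against 786.7, 603.1 and 874.5 CPM in WT3, WT9 and WT11. Every SG line lay below every WT line, and the log2 fold change was -1.06 (SE 0.17, adjusted p = 0.0295). This call was lost without SG2, WT3 or WT11 (adjusted p = 0.138, 0.119 and 0.111) and with a robust prior (0.0897), while the log2 fold change in those 4 fits stayed between -1.06 and -0.94. Aldh1a3, which makes retinoic acid, was at 1.90 ± 0.689 CPM in SG, against 4.30 ± 0.399 CPM in WT (SD, n = 3 each; adjusted p = 0.0583). The other Aldh1a genes of the list, Aldh1a1 and Aldh1a2, went the other way, and their genotypes overlapped. Their log2 fold changes were 1.32 and 0.31 (adjusted p = 0.414 and 0.784). Aldh1a2 was at 6.82 ± 3.71 CPM in SG, against 5.50 ± 1.98 CPM in WT (SD, n = 3 each). The receptors Rara, Rarb and Rarg did not pass (adjusted p = 0.713, 0.827 and 0.527).

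Of 12 other regulators of HoxB transcription, 9 were tested and 0 passed, while Cdx1, Cdx2 and Cdx4 were too low to test. Egr2, which drives Hoxb2 in the hindbrain, was at 4.32 ± 0.792 CPM in SG, against 5.38 ± 0.782 CPM in WT (SD, n = 3 each; adjusted p = 0.415). Of 19 Polycomb genes 0 passed in either direction, with a median log2 fold change of 0.03, and Ezh2, the H3K27 methyltransferase, stood at 85.5 ± 4.20 CPM in SG, against 86.2 ± 0.803 CPM in WT (SD, n = 3 each). Of 13 Trithorax genes and H3K27 demethylases 0 passed, with a median of 0.04, and Kmt2a, which keeps Hox genes active, stood at 90.6 ± 5.64 CPM in SG, against 83.2 ± 2.01 CPM in WT (SD, n = 3 each; adjusted p = 0.301).

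The HoxB genes can be set against genes of the same paralog number in other clusters, which encode the most similar proteins. Among paralogs up to 9, the threshold was passed by 0 of 8 HoxB genes (median log2 fold change 0.47), 6 of 7 HoxA genes (1.41), 2 of 5 HoxC genes (0.65) and 0 of 4 HoxD genes (-0.23), all calls being higher in SG. The 6 HoxA calls became 0 without SG2, 3 without WT3 and 3 without WT11, and the 2 HoxC calls became 0 without SG2, SG3, WT3 or WT11, 1 without WT9 and 4 without SG1. With DESeq2, and likewise without a count filter, the counts were 5 of 8 HoxB, 6 of 7 HoxA and 4 of 5 HoxC genes. The log2 CPM of each HoxB gene minus that of its HoxA paralog was compared between genotypes by a 2-sided exact permutation test over the 6 lines, adjusted over 7 pairs, in a design whose smallest possible p is 0.1.

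These differences are not corrected for gene length, so their move between genotypes can be read and their sign cannot. Hoxb5 minus Hoxa5 was -2.71 ± 0.336 in SG lines and -1.64 ± 0.396 in WT lines (log2 CPM, SD, n = 3 each). Hoxb6 minus Hoxa6 was 1.85 ± 0.119 in SG lines and 2.76 ± 0.268 in WT lines. Hoxb3 minus Hoxa3 was -0.94 ± 0.320 in SG lines and 0.08 ± 0.275 in WT lines. The difference moved by -1.04, -1.02, -0.73, -1.08, -0.90 and -0.74 for paralogs 2, 3, 4, 5, 6 and 7, each without overlap and with an exact permutation p of 0.1 (0.117 adjusted). For paralog 9 it was 2.27 ± 0.231 in SG and 2.22 ± 0.129 in WT, a move of 0.05 (exact permutation p = 0.8), with overlap, and it turned to -0.085 without SG3.

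**Figure D4:**
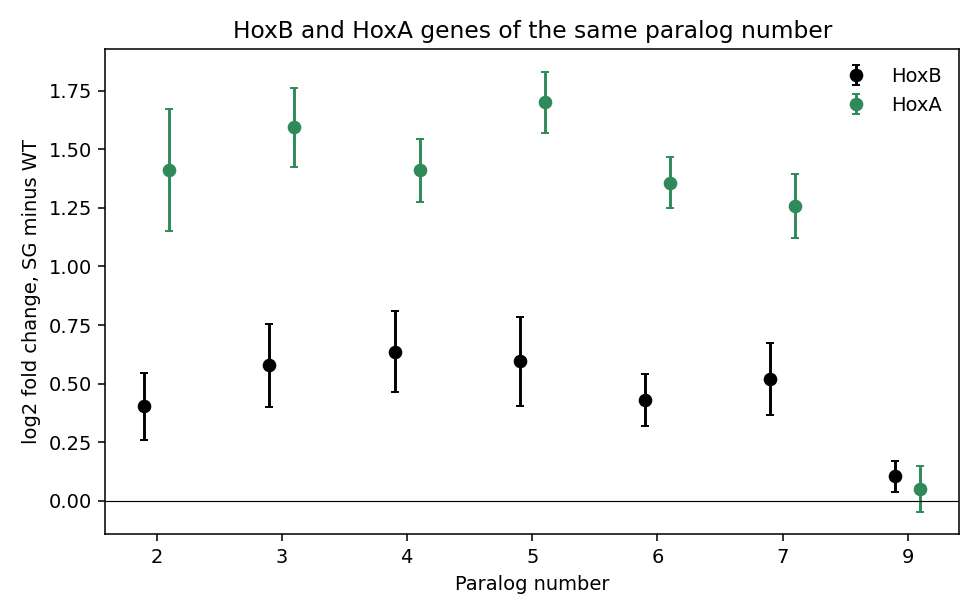
Log2 fold change (SG minus WT, bars ± SE) of HoxB genes (black) and HoxA genes (green) by paralog number; Hoxa8 does not exist in the mouse. HoxB values lie at 0.40 to 0.64 for paralogs 2 to 7, HoxA values at 1.26 to 1.70, and both lie near 0 for paralog 9.

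Likeness among the 8 genes was measured as Pearson's r of log2 CPM over the 6 lines, a description, since lines share a genotype and the lines of each genotype stand apart. Hoxb2, Hoxb3, Hoxb4, Hoxb5 and Hoxb6 each had a fellow HoxB gene at 0.987 to 0.989, while Hoxb7 and Hoxb8 were most like each other (0.944). Hoxb9 was most like Hoxb7 (0.849) and least like Hoxb2 (0.148). Among all 16068 genes the nearest to a HoxB gene was never another HoxB gene, with Dhx57 nearest to Hoxb2 and Smim14 nearest to Hoxb8. The closest fellow HoxB gene still ranked 9 to 12 for Hoxb2 to Hoxb6. It ranked 155 for Hoxb7, 143 for Hoxb8 and 475 for Hoxb9. The genes most like the mean pattern of the 8 were Ift46 (0.998), Klc2 (0.997), Kank1 (0.996), Slc25a36 (0.994) and Speg (0.990). That pattern is itself higher in SG, so the direction of genes picked by it is not a separate result. Of the 10 most alike, Speg was the one that passed the threshold, at 44.6 ± 2.63 CPM in SG, against 33.8 ± 2.81 CPM in WT (SD, n = 3 each; log2 fold change 0.40, SE 0.07, adjusted p = 0.0362). Leaving out SG2, SG3, WT3 or WT11 ended that call (adjusted p = 0.115, 0.0681, 0.122 and 0.101).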

How the data were processed

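Whole-number read counts per gene, unnormalised, were deposited for each of the 6 lines. Trimmomatic 0.36, STAR 2.5.2b, featureCounts of Subread 1.5.2, DESeq2 and the build GRCm38 are named, per the submitters' processing notes. The sources used here do not give the annotation release, the strand setting or the treatment of multimapping reads. GENCODE M21 gave a symbol to 48970 of 49315 identifiers, and 0 rows named no gene.

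The main test was edgeR 4.0.16 under R 4.3.3 (filterByExpr, TMM, glmQLFit, glmQLFTest, no covariate). SE values are log2 fold changes over the square root of F. Log2 CPM for balance, pairs and likeness used a prior count of 2. The fits were tested on simulated data with 200 changed genes. Permutation tests used scipy 1.17.1. Alternatives were other scalings and filters, DESeq2 1.42.0, voom of limma 3.58.1, a robust prior, an Xist term and leaving out lines.

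The genes and lists were chosen with earlier results of these data known. The naming rule took all 8 HoxB genes in every line, at most 4 members past the threshold from a list, cluster neighbours and the 10 genes most alike. A few items are not reported here. Other list members were picked after their values were seen. With 3 lines per genotype, precision is limited by the spread between embryos, and counting intervals cover counting error only.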

Additional observations from a re-analysis of the deposited data

How the results depend on the processing

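All 16 alternative fits kept the 8 HoxB log2 fold changes above 0, and their median lay between 0.36 (without WT11) and 0.54 (without SG1 and WT9). In 12 of the 16, 0 of the 8 genes passed the threshold. The exceptions were 5 genes higher in SG without a count filter, 5 with DESeq2, and 0 to 1 when leaving out a line. The number of all genes past the threshold, 306, was 959 without a count filter, 952 with DESeq2, 703 without the Xist-expressing lines and 3 to 579 when leaving out a line. The difference of Hoxb9 minus Hoxa9 between genotypes, 0.05, ran between -0.085 and 0.12 when leaving out a line, with -0.085 without SG3; the cause was not tested. Under RLE, upper quartile and total count scaling, an alternative chosen after seeing the data, 7 of the 8 genes still did not overlap. No paired analysis was possible because the sources used here give no litter or sequencing run by which to pair lines. The genotypes share only 1 line number, and the labels do not say that a number marks a pair. Hoxb5os, Hoxb3os and Mir196a-1 had few counts, and their SE of 0.27 to 0.41 limits what can be seen there.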

Other observations

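Among markers of other cell types, the basal keratin gene Krt5 had 162 counts in SG1, 107 in SG2 and 0 in SG3, and 0 in each of WT3, WT9 and WT11. At 2.94 CPM in SG1 and 1.68 CPM in SG2 it was not among the genes tested, and Cdh1, which defines epithelial cells, had 2 to 9 counts in every line. Sox2 was at 0.217, 0.423 and 0.496 CPM in SG1, SG2 and SG3, against 4.08, 0.596 and 3.90 CPM in WT3, WT9 and WT11, so WT9 lay near the SG lines. Both genes were picked after their values were seen.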
